A study of Mus musculus with 4 samples.

Results

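The F-box substrate receptors and the core subunits of the SCF ubiquitin ligase were examined in 2-cell mouse embryos. The set was taken by symbol from the protein-coding genes of GENCODE M21: every Fbxo, Fbxl and Fbxw gene with a number in its symbol, plus Skp1a, Cul1, Rbx1, Skp2 and Btrc, without Fbxo5, Fbxo43 and the Fbxw13 to Fbxw28 series. It held 65 of the 53715 genes in the count table, namely 3 core subunits, 19 receptors of the Fbxl type (Skp2 included), 9 of the Fbxw type (Btrc included) and 34 of the Fbxo type. The left-out symbols account for 17 further genes of the table.

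An SCF ligase is built on the cullin scaffold Cul1, which holds the RING protein Rbx1 at one end and the adaptor Skp1 at the other. Skp1 binds the F-box of one receptor at a time, and the receptor chooses the protein to be ubiquitinated, through leucine-rich repeats in the Fbxl type, WD40 repeats in the Fbxw type and other domains in the Fbxo type. The ligase is switched on when the ubiquitin-like protein NEDD8 is attached to the cullin, and receptors are exchanged after NEDD8 is removed. In oocytes and early embryos SCF ligases take part in cell-cycle control and in the removal of maternal proteins.

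Poly(A) RNA had been sequenced from whole embryos of a C57BL/DBA2 background. Zygotes were taken from the oviduct, injected with 20 μM of a control siRNA (siNC) or of an siRNA against SPENH0335, and cultured in KSOM, an embryo culture medium. Both groups, called control and knockdown here, were therefore injected and cultured, and each has 2 libraries. The number of embryos per library, their sex and whether libraries came from separate collections of zygotes are not stated in the labels. The p-values below thus rest on the variation among 4 libraries, and some of it may be technical. The count table has no row named for SPENH0335, so its own level was not read.

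Libraries held 78865491 to 99011109 counts, of which 0.642 to 0.662% fell on the 65 SCF genes. All 8 genes listed as markers of the 2-cell stage had counts in every library. Their summed CPM (counts scaled by library total and a TMM normalization factor) was 1696 and 1716 in control and 1923 and 2086 in knockdown. Obox1 was the highest of them, with a mean of 1010 CPM over the libraries. The sum rests largely on that gene and is not read as a measure of the stage. The 10 oocyte-derived transcripts summed to 6303 and 6337 CPM in control and 5767 and 5962 in knockdown. Markers of other cells were low in both groups: 10 cumulus and granulosa genes summed to 47.0 to 64.4 CPM, 7 blood genes to 17.3 to 67.6 with Hbb-bs and Hbb-bt at 0, 7 oviduct and stroma genes to 21.3 to 41.9 with Col3a1 at 0, and 6 sperm genes to 8.2 to 16.8. The highest genes of these lists, Cyp19a1, Hba-a1, Epcam and Ldhc, averaged 44.6, 22.1, 22.8 and 5.32 CPM, much of each sum. In bulk libraries fewer cells and less RNA per cell cannot be told apart. The part of these marker levels in the results below was not tested.

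A count was present in every library for 61 of the 65 SCF genes, and none was without counts altogether. By mean level, 11 genes were at 100 CPM or above, 24 between 10 and 100, 21 between 1 and 10, and 9 under 1 CPM. To compare genes with each other, CPM was divided by the length of the exons in kilobases (kb). Cul1, with a mean of 518 CPM per kb, and Skp1a, with 427, stood above every single receptor, and Rbx1 averaged 80.2, against a median receptor of 2.53. Only Fbxo11, at 106, and Fbxo8, at 93.5 CPM per kb, exceeded Rbx1; with the longest transcript as the length, only Fbxo8 did.

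**Figure D1:**
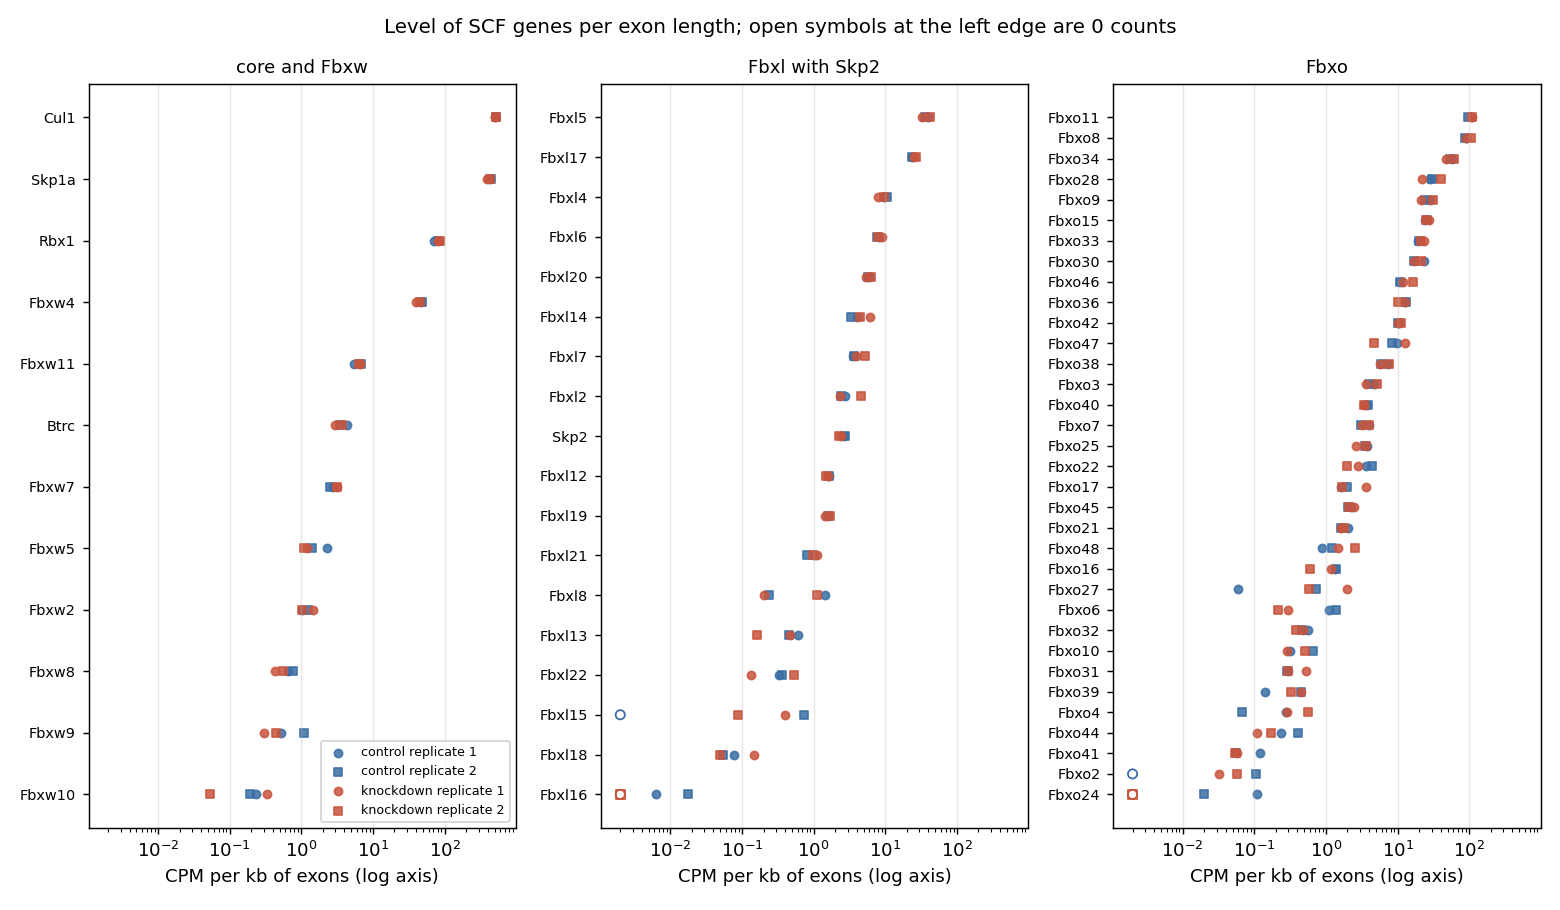
Level of SCF genes in CPM per kb of exons (log axis), one symbol per library, ordered by level within each panel; open symbols at the left edge are libraries with 0 counts. Cul1 and Skp1a lie at the top near 518 and 427 CPM per kb, and a few Fbxo genes with Fbxw4 and Fbxl5 stand above the other receptors in all 4 libraries.

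Within the set, receptor transcripts were concentrated in a few genes. F-box genes outside the symbol rule are not part of these sums. The highest of those listed under other symbols, Lmo7, averaged 62.3 CPM per kb, above Fbxo34 at 55.0. The 62 receptors summed to 636 and 613 CPM per kb in control and 611 and 684 in knockdown, so the summed receptors were of the same order as Cul1 alone, which had 511 and 531 in control and 510 and 521 in knockdown. Of that sum, 5 receptors made up 53.1 and 52.8% in control and 52.8 and 53.5% in knockdown. They were Fbxo11, a receptor for the repressor BCL6, with a mean share of 16.7%, Fbxo8, which carries a Sec7 domain, with 14.7%, Fbxo34 with 8.64%, Fbxw4, the gene disrupted in dactylaplasia mice, with 7.14%, and Fbxl5, the iron-sensing receptor for IRP2, with 5.89%. The share of the top 10 receptors averaged 73.1%. These shares depend on the exon lengths used: with the longest transcript in place of all exons the top 5 made up 56.9% and Fbxo8, at 16.9%, stood ahead of Fbxo11, at 13.7%.

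Knockdown and control were then compared gene by gene, the only comparison the labels set up. After a filter on low counts, 62 of the 65 genes entered the test; Fbxo2, Fbxl16 and Fbxo24 had too few counts. None of the 62 passed an adjusted p under 0.05 in edgeR's quasi-likelihood test, as none of the 25565 genes tested did (0% called). At an unadjusted p under 0.05, 0 members were higher and 1 was lower (1.61% of members), against 1.56% of all genes higher and 2.29% lower. DESeq2 called 0 members while calling 0.144% of 36863 genes, and limma-voom called 0 members.

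Differences between the groups were spread evenly around 0. The log2 fold change of knockdown over control was above 0 in 32 members and below 0 in 30, with a median of 0.009, beside -0.0025 over all genes tested. Its median size without regard to sign was 0.177, beside 0.298 over all genes. The 2 sets differ in level: 35 of the 62 members averaged at least 10 CPM, against 8185 of the 25565 genes. At that level the group means lay a median of 0.123 apart on the log2 scale in members, beside 0.133 over all genes. Both knockdown libraries lay above both controls in 11 members (17.7%, against 15.6% of all genes), and both lay below in another 11 (17.7%, against 17.1%). These shares are near the background in both directions.

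**Figure D2:**
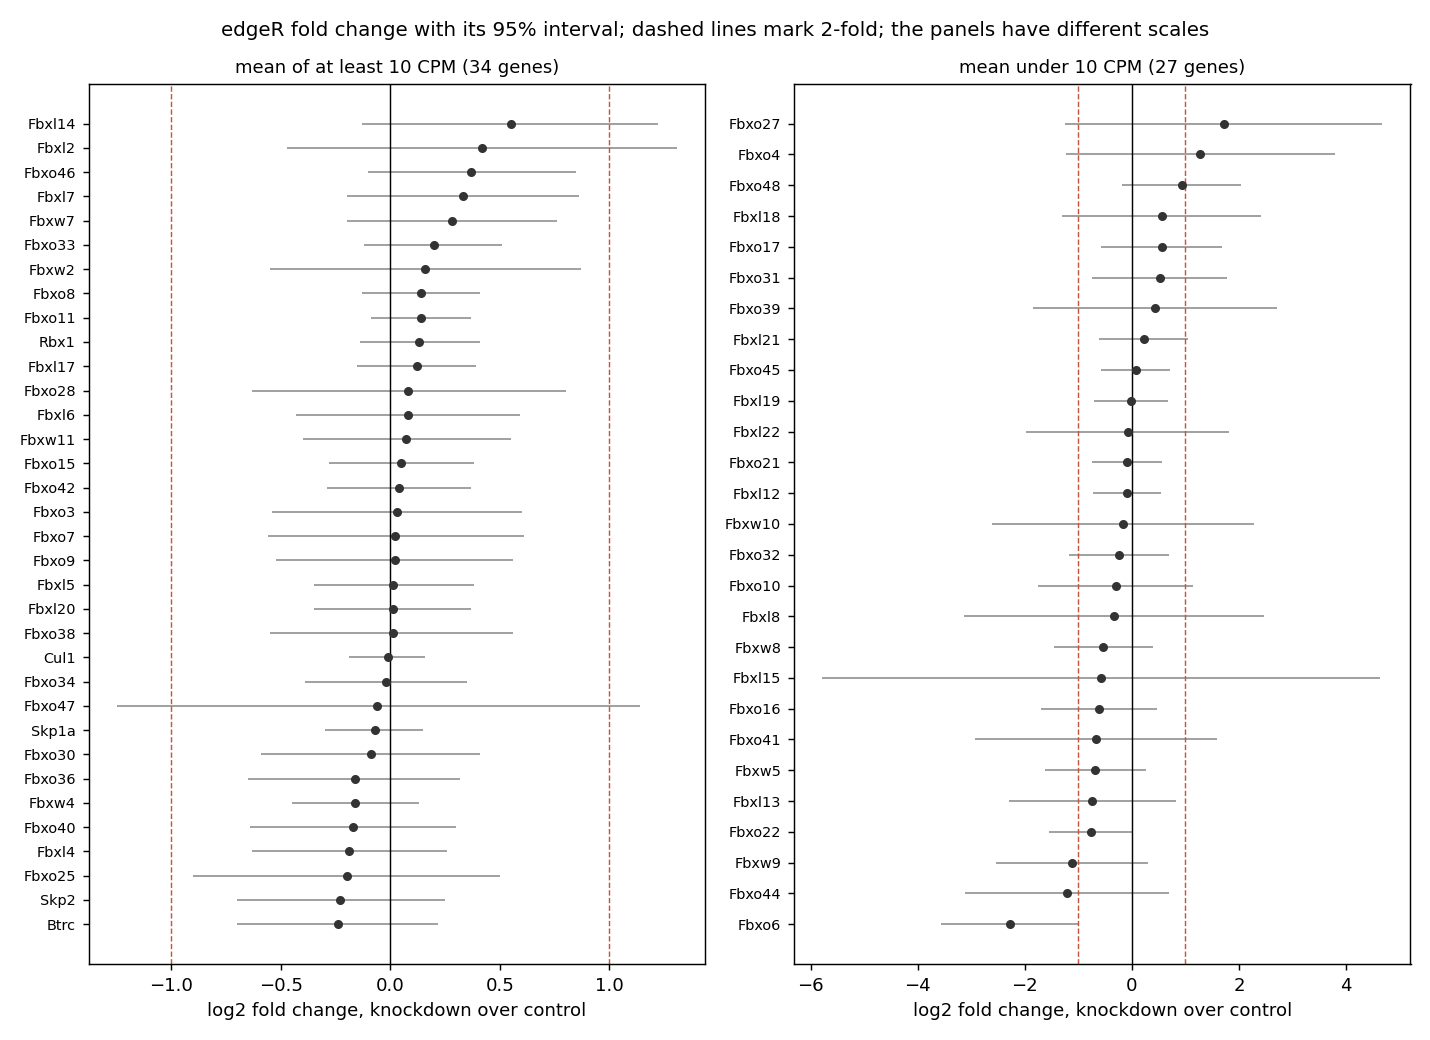
Log2 fold change of knockdown over control for tested SCF genes (points) with 95% intervals from the edgeR fit (lines), those with a mean of at least 10 CPM on the left and the lower ones on the right, on different scales; dashed lines mark 2-fold. The interval of Fbxo6 lies from -3.57 to -0.98, and intervals are narrow for abundant genes such as Cul1 (-0.19 to 0.16) and wide for genes near the low-count limit.

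How small a difference the data could have shown depends on level. Among the 35 members with a mean of at least 10 CPM, the 95% interval of the fold change stayed within 2-fold in both directions for 32 (91.4%, beside 87.8% of all genes at that level), the exceptions being Fbxo47, Fbxl14 and Fbxl2. It stayed within 1.5-fold for 17 (48.6%, beside 44.2%). Below 10 CPM, differences of 2-fold were mostly not resolvable at this depth and replicate number. Intervals within 2-fold were found for 36 of all 62 members tested, and 32 of these 36 averaged at least 10 CPM.

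The 3 core subunits had nearly equal levels in the 2 groups. Cul1 (chromosome 6, 47453398 to 47526139, GRCm38) was at 2066 and 2144 CPM in control and 2061 and 2106 in knockdown, a log2 fold change of -0.01 (95% interval -0.19 to 0.16). The knockdown values of the scaffold overlapped the control values. Skp1a (chromosome 11, 52231995 to 52246858), the adaptor, was at 949 and 985 CPM in control and 873 and 966 in knockdown, with a log2 fold change of -0.07 (interval -0.30 to 0.15). Rbx1 (chromosome 15, 81466296 to 81476369), which recruits the ubiquitin-loaded E2 enzyme, was at 325 and 372 CPM in control and 371 and 393 in knockdown, 0.13 on the log2 scale (interval -0.14 to 0.41). Its groups overlapped only by the margin between control replicate 2 and knockdown replicate 1. For Cul1 and Skp1a the intervals leave room for changes of less than 1.5-fold in either direction, and an unchanged level was not shown.

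Among the 18 tested Fbxl receptors, the log2 fold change was positive in 10 and negative in 8, ranging from -0.74 to 0.56 around a median of 0.01. The highest per kb was Fbxl5 (chromosome 5, 43744615 to 43821638), at 380 and 347 CPM in control and 321 and 413 in knockdown. Its knockdown libraries lay on either side of the controls, and its log2 fold change was 0.01 (interval -0.35 to 0.38). Fbxl17, a quality-control receptor for wrongly paired BTB domain proteins, was at 129 and 132 CPM in control and 138 and 146 in knockdown. The groups did not overlap, but the difference of 0.12 on the log2 scale had an interval from -0.15 to 0.39.

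Fbxl21 was among the low receptors, at 0.98 CPM per kb, with 4.82 and 3.88 CPM in control and 5.40 and 4.71 in knockdown. Knockdown replicate 1 was the highest library for Fbxl21, while replicate 2 lay between the controls. Skp2, the receptor for the cyclin-dependent kinase inhibitor p27, was at 21.2 and 21.7 CPM in control and 18.9 and 17.8 in knockdown. Both knockdown values of Skp2 were below both controls, with a log2 fold change of -0.23 (interval -0.70 to 0.25).

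Of the remaining named Fbxl genes, Fbxl4, a mitochondrial protein that restrains mitophagy, was at 36.9 and 39.8 CPM in control and 30.5 and 36.9 in knockdown, with a log2 fold change of -0.19. Fbxl6 was at 17.8 and 16.8 CPM in control and 19.4 and 17.1 in knockdown, 0.08 on the log2 scale. Fbxl20 was at 70.9 and 69.3 CPM in control and 64.6 and 76.5 in knockdown, 0.01 on the log2 scale. The groups overlapped for Fbxl6 and Fbxl20, and knockdown replicate 2 of Fbxl4 was level with control replicate 1 to the digits given. Fbxl16 had 2 and 5 counts in control and 0 in both knockdown libraries. There 3 counts would be 0.0303 to 0.0318 CPM of the raw library total, so the groups of Fbxl16 cannot be told apart at this depth.

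Of the 9 Fbxw receptors, the log2 fold change was positive in 3 and negative in 6, ranging from -1.11 to 0.28 around a median of -0.16. Their summed level was 287.5 and 284.8 CPM in control and 250.7 and 273.1 in knockdown, that is 286.2 ± 1.94 and 261.9 ± 15.8 (SD, n = 2 each). Fbxw4 (chromosome 19, 45578254 to 45660312), the highest Fbxw gene per kb, was at 148 and 155 CPM in control and 127 and 143 in knockdown. Both knockdown values of Fbxw4 lay below both controls, with a log2 fold change of -0.16 (interval -0.45 to 0.13). No test was made on the sum.

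The paralogues Btrc and Fbxw11 encode the 2 β-TrCP receptors, which recognise phosphorylated IκBα, β-catenin and WEE1. Btrc was at 73.8 and 59.0 CPM in control and 50.3 and 62.2 in knockdown, with a log2 fold change of -0.24. Fbxw11 was at 23.9 and 29.1 CPM in control and 28.5 and 27.3 in knockdown, 0.07 on the log2 scale. The groups overlapped for both paralogues. The order of the pair depends on the length used: per kb of all exons (16908 bases for Btrc, 4327 for Fbxw11) Fbxw11 was at 6.28 CPM and Btrc at 3.63, while per kb of the longest transcript Btrc was at 13 and Fbxw11 at 6.77. Fbxw7, the receptor for cyclin E, MYC and NOTCH1, was at 19.2 and 17.5 CPM in control and 22.2 and 22.4 in knockdown. Its groups did not overlap, and the log2 fold change of 0.28 had an interval from -0.20 to 0.76.

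Of the 32 tested Fbxo receptors, the log2 fold change was positive in 18 and negative in 14, ranging from -2.27 to 1.72 around a median of 0.02. Fbxo8 (chromosome 8, 56551090 to 56593939) was at 490 and 485 CPM in control and 493 and 580 in knockdown. Fbxo11 (chromosome 17, 87990859 to 88065291) was at 461 and 425 CPM in control and 488 and 485 in knockdown. Both genes had higher values in both knockdown libraries and a log2 fold change of 0.14, with intervals from -0.13 to 0.41 for Fbxo8 and from -0.09 to 0.37 for Fbxo11. Fbxo34 was at 246 and 228 CPM in control and 204 and 263 in knockdown, -0.02 on the log2 scale, with overlapping groups.

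Fbxo9, a receptor that targets TEL2 and TTI1, was at 87.7 and 74.4 CPM in control and 66.6 and 97.8 in knockdown, 0.02 on the log2 scale. Fbxo30 was at 121 and 89.4 CPM in control and 88.1 and 110 in knockdown, -0.09 on the log2 scale. In both genes the 2 knockdown libraries lay apart by more than the group means did. Among receptors known from other settings, Fbxo32, the muscle atrophy receptor atrogin-1, was at 3.89 and 3.24 CPM in control and 3.38 and 2.64 in knockdown. Fbxo31, which targets cyclin D1 after DNA damage, was at 1.64 and 1.54 CPM in control and 2.93 and 1.63 in knockdown. Fbxo4 was at 0.575 and 0.137 CPM in control and 0.580 and 1.16 in knockdown, on 11 to 109 counts. These 3 genes had low levels, and the 95% interval of each fold change included 0. Fbxo24 had 24 and 4 counts in control and 0 in both knockdown libraries, and was not tested.

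The smallest p among the members belonged to Fbxo6 (chromosome 4, 148145716 to 148152140, minus strand), whose protein binds N-linked glycans and works in the disposal of misfolded glycoproteins. It had 215 and 246 counts in control and 64 and 44 in knockdown, which is 2.42 and 3.06 CPM against 0.663 and 0.469. Both knockdown values were under both controls. The log2 fold change was -2.27 (SE 0.52, interval -3.57 to -0.98), with an unadjusted p of 0.00558 and an adjusted p of 0.9999 in edgeR's quasi-likelihood test. Adjusted p ranged from 0.148 (DESeq2) to 1 over the alternatives that kept the gene, so the difference did not pass the threshold under any of them.

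**Figure D3:**
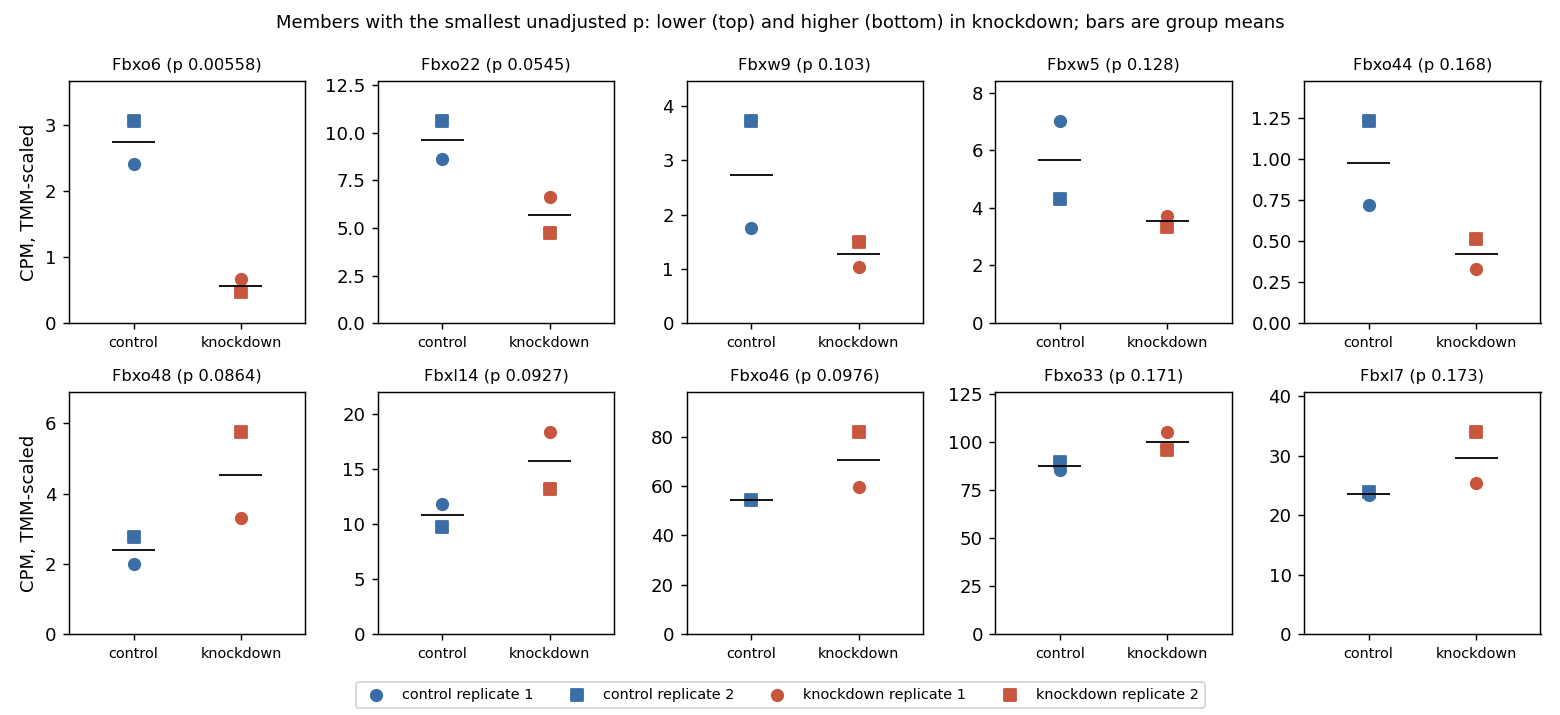
TMM-scaled CPM in each library for the members with the 5 smallest unadjusted p in each direction, lower in knockdown in the top row and higher in the bottom row; bars are group means. Control values of Fbxo6 are 2.42 and 3.06 CPM against 0.663 and 0.469 in knockdown, and the groups do not overlap in any of the 10 panels, which chose genes by their p.

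Next in order among lower values came Fbxo22, a receptor for the histone demethylase KDM4A, at 8.64 and 10.6 CPM in control and 6.64 and 4.75 in knockdown. Its log2 fold change was -0.76 (interval -1.54 to 0.02). Fbxo22 shares 13.45% of its 50-base exon windows with other genes, most of them with Nrg4 on the opposite strand, which had 10906 to 13776 counts against 446 to 853 for Fbxo22. Since the strand setting of the counting is not given, reads of the 2 genes cannot be told apart there. Fbxw9 was at 1.75 and 3.72 CPM in control and 1.04 and 1.5 in knockdown, with a log2 fold change of -1.11 (interval -2.53 to 0.31). Fbxw5, which targets the centriole protein SAS-6, was at 7 and 4.31 CPM in control and 3.70 and 3.35 in knockdown, -0.68 on the log2 scale. Single control libraries moved both values: without control replicate 2 the log2 fold change of Fbxw9 was -0.46, and without control replicate 1 that of Fbxw5 was -0.29.

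On the higher side, the smallest p belonged to Fbxo48, at 2 and 2.76 CPM in control and 3.30 and 5.74 in knockdown, a log2 fold change of 0.93 (interval -0.18 to 2.04). Fbxl14, a receptor for the transcription factor Snail, was at 11.8 and 9.72 CPM in control and 18.3 and 13.2 in knockdown, 0.55 on the log2 scale (interval -0.13 to 1.22). Fbxo46 was at 54.5 and 54.4 CPM in control and 59.5 and 81.8 in knockdown, 0.37 on the log2 scale (interval -0.10 to 0.85). In Fbxo46 the controls were almost level and knockdown replicate 2 was the high library. Fbxo33 was at 85.6 and 89.8 CPM in control and 105 and 95.6 in knockdown, 0.20 on the log2 scale. Fbxl7 was at 23.4 and 23.8 CPM in control and 25.4 and 33.9 in knockdown, 0.33 on the log2 scale. All 5 genes had intervals that included 0. Without knockdown replicate 2 the log2 fold changes were 0.48 for Fbxo48, 0.13 for Fbxo46 and 0.11 for Fbxl7, and without knockdown replicate 1 they were 0.30 for Fbxl14 and 0.13 for Fbxo33.

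Fbxo6 lies beside 2 other F-box genes, Fbxo44 and Fbxo2. A further pair, Fbxo17 and Fbxo27, lies close together on chromosome 7. These 5 genes were set side by side after their values had been seen. Fbxo44 (chromosome 4, 148152800 to 148160482) was at 0.722 and 1.23 CPM in control and 0.331 and 0.511 in knockdown, a log2 fold change of -1.21 (interval -3.12 to 0.69; -0.78 without control replicate 2). Fbxo2 (chromosome 4, 148160621 to 148166424) had 0 and 11 counts in control and 4 and 7 in knockdown. Both Fbxo6 and Fbxo44 were thus lower in each knockdown library than in either control, while Fbxo2 was too low to read. On chromosome 7, Fbxo17 (28716804 to 28738144) was at 4.04 and 4.97 CPM in control and 9.08 and 4.18 in knockdown. Fbxo27 (28692849 to 28699338) had 16 and 177 counts in control and 586 and 166 in knockdown. Knockdown replicate 1 was the high library for both Fbxo17 and Fbxo27, and replicate 2 lay within the control range for both.

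Replicates differed more in knockdown than in control, in SCF genes as in others. Over the 35 members with a mean of at least 10 CPM, the median distance between the control libraries was 0.11 on the log2 scale and that between the knockdown libraries 0.274, while the group means lay 0.123 apart. Over the 8185 genes at that level the same medians were 0.128, 0.261 and 0.133. Knockdown replicate 2 was above replicate 1 in 25 of the 35 members (71.4%), beside 60.7% of all genes at that level.

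**Figure D4:**
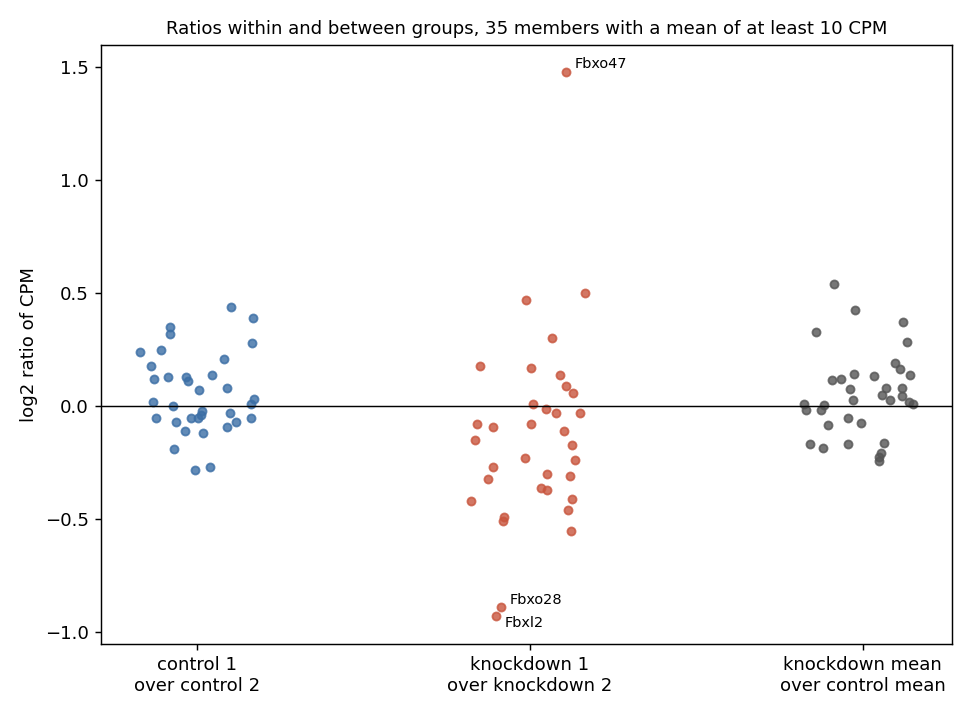
Log2 ratio of CPM within control, within knockdown and between group means, one point per member with a mean of at least 10 CPM (35 members). The knockdown ratios spread furthest, with Fbxo47 at the top and Fbxo28 and Fbxl2 at the bottom.

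Several members were split by the knockdown replicates. Fbxo28 was at 150 and 163 CPM in control and 116 and 215 in knockdown, so its controls lay between the knockdown libraries. Fbxo47, a gene needed for meiosis, was at 21.8 and 18.4 CPM in control and 28.5 and 10.2 in knockdown. Fbxl2 was at 12.1 and 10.7 CPM in control and 10.5 and 20.1 in knockdown. These 3 genes had opposite orders, with Fbxo47 high in knockdown replicate 1 and the other pair high in replicate 2. At low counts the split reached the controls as well: Fbxl8 had 269 and 40 counts in control and 41 and 224 in knockdown, and Fbxl15 had 0 and 79 in control and 52 and 11 in knockdown. Fbxo47, Fbxl8 and Fbxl15 were singled out after their values were seen. When knockdown replicate 1 was left out, 11 of 64 members (17.2%) had an unadjusted p under 0.05, against 13.1% of all genes, and without knockdown replicate 2 it was 6 of 64 (9.38%), against 8.02%. In both fits the spread came from the 2 control libraries alone, the closer pair, and the single knockdown library was assumed to vary like them.

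The other genes of the pathway were read from 5 lists, and none of their genes passed the adjusted threshold in edgeR's test. Of 23 genes for NEDD8 conjugation, its removal by the COP9 signalosome and receptor exchange, 11 were above 0 and 12 below (median log2 fold change -0.01), and 1 (4.35%) had an unadjusted p under 0.05, beside 3.85% of all genes tested. The gene was Ube2f, the NEDD8 E2 enzyme that serves Rbx2 and Cul5 and not the Rbx1 of SCF, at 22.6 and 26.3 CPM in control and 36.4 and 43.9 in knockdown. Both knockdown values exceeded both controls, with a log2 fold change of 0.72 (SE 0.19) and an unadjusted p of 0.0108 in edgeR's quasi-likelihood test. Gps1, a COP9 subunit, had the smallest p among the lower ones, at 56.5 and 51.4 CPM in control and 38.8 and 48.6 in knockdown.

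Among 10 E1, E2 and helper ligase genes, 6 were above 0 and 4 below (median 0.02), with 0 at an unadjusted p under 0.05. Arih1, the helper ligase that places the first ubiquitin on SCF substrates, was at 205 and 200 CPM in control and 229 and 233 in knockdown, 0.19 on the log2 scale. Ube2d3, an abundant E2 enzyme, was at 2070 and 2032 CPM in control and 1829 and 1906 in knockdown, -0.14 on the log2 scale. Neither gene had overlapping groups. Of 12 other cullins and their adaptors 6 were above 0 and 6 below (median 0.01, mean 0.19), with 0 at an unadjusted p under 0.05. The largest fitted value in the list, 3.05, belonged to Cul9, which had 0.113 and 0 CPM in control and 0.725 and 0.234 in knockdown. Eloc, the elongin C adaptor, was at 215 and 182 CPM in control and 182 and 150 in knockdown.

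**Figure D5:**
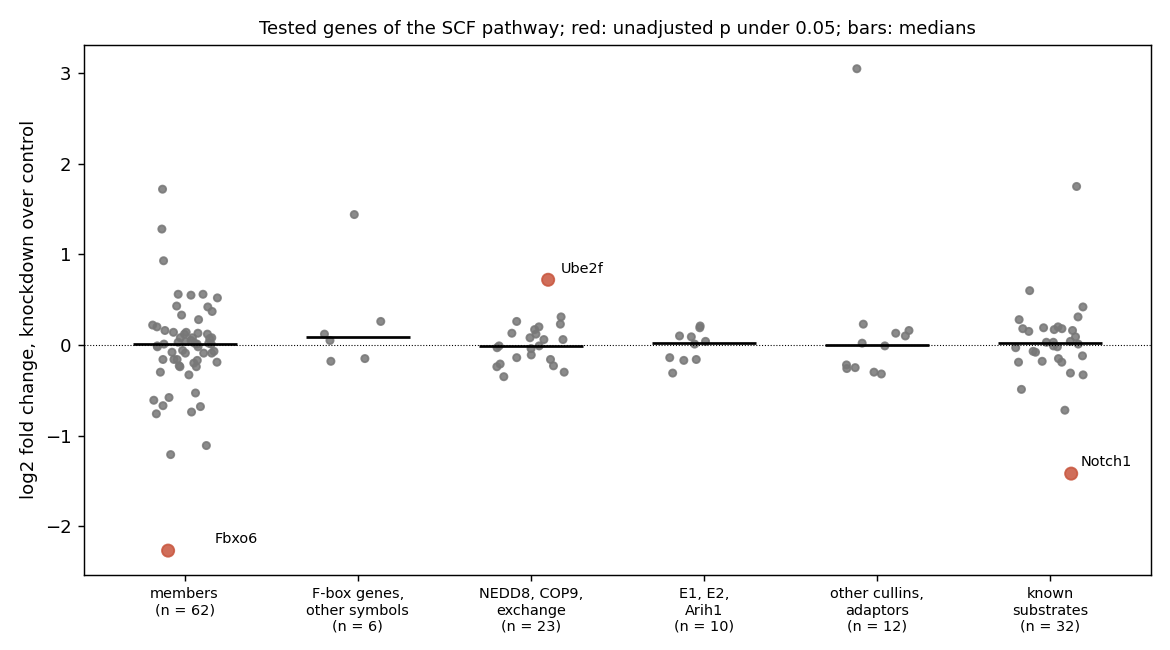
Log2 fold change of knockdown over control for the tested members and the 5 pathway lists, one point per gene, with medians as bars; red points have an unadjusted p under 0.05. All 6 medians lie close to 0, and the red points are Fbxo6 at -2.27, Ube2f at 0.72 and Notch1 at -1.42.

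Transcripts of 32 known SCF substrates were above 0 in 17 cases and below in 15 (median 0.02), and 1 (3.12%) had an unadjusted p under 0.05, beside 3.85% of all genes tested. That gene was Notch1, a receptor degraded through Fbxw7, at 1.8 and 2.58 CPM in control and 0.735 and 0.894 in knockdown, with a log2 fold change of -1.42 (SE 0.52) and an unadjusted p of 0.0358 in edgeR's quasi-likelihood test. Cdc25b, a phosphatase that activates cyclin-dependent kinases, was at 25.9 and 27.3 CPM in control and 30.3 and 40.7 in knockdown, 0.42 on the log2 scale. Both Notch1 and Cdc25b had groups that did not overlap. Of 6 F-box genes under other symbols, 4 were above 0 and 2 below (median 0.08, mean 0.26), with 0 at an unadjusted p under 0.05. Fbh1, an F-box DNA helicase, was at 105 and 92.7 CPM in control and 104 and 134 in knockdown, and Kdm2a, a histone demethylase, at 34.8 and 43.1 in control and 38.9 and 29.8 in knockdown. RNA levels do not measure the substrate proteins, on which the ligases act.

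Some members share sequence or ground with other genes, so their counts depend on how the authors assigned reads. Of 50-base windows along the exons, Fbxl12 shares 34.95% with other genes (mostly Ubl5), Fbxw8 31.14% (mostly Gm9754), Fbxl15 22.29% (mostly Cuedc2), Fbxo34 17.41% and Fbxw4 17.33% (mostly Gm17018). Smaller shares were found for Fbxl2 at 9.86%, Fbxo46 at 8.66%, Fbxl14 at 6.21%, Rbx1 at 3.5%, Cul1 at 2.35% and Skp1a at 1.87%. No window was shared for Fbxo6, Fbxo44, Fbxo48, Fbxw5, Fbxo8, Fbxo11, Skp2, Fbxl7 or Fbxo33.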

How the data were processed

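Poly(A) RNA of 4 libraries (2 control, 2 knockdown) was deposited by the authors as whole-number counts per gene, not normalized by their values. Per the submitters' processing notes, the tools were HISAT2 2.1.0, Trim Galore 0.6.5, Picard 2.18.2 and CASAVA 1.8, with build mm10 and no stated roles. Not given in the sources used here are the counting tool, its annotation and strand setting, and whether duplicates were kept. The cDNA was pre-amplified per the labels' protocols, so floors of 3 counts cover counting error only.

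Symbols, positions and exon lengths came from GENCODE M21 (GRCm38), which matched 53620 of 53715 rows. The test was run in R 4.3.3 with edgeR 4.0.16: filterByExpr (minimum 10 counts), TMM scaling, quasi-likelihood F-test on group alone, two-sided, with Benjamini-Hochberg adjustment over 25565 genes and a threshold of 0.05. The SE was obtained from the log2 fold change and F (their ratio after taking the root of F), and the t distribution gave 95% intervals. The procedure was tested on data simulated from its own fitted model, with changes planted only in genes averaging at least 10 CPM. That run does not bear on lower genes. DESeq2 1.42.0, limma 3.58.1 (voom), RLE scaling, other filters, each library left out and a replicate block were alternatives. Levels between genes are CPM per kb of the union of exons; reads may not cover exons evenly, which these lengths do not correct. Shared sequence was counted in 50-base windows of annotated transcripts. Library pairs had a chi-square of 30.9 to 103 per degree of freedom, more than counting error alone, and no pair was merged. The check covers counting error only, so it cannot show that libraries came from separate embryos.

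Members and gene lists were chosen with earlier results of these data known. Named members are the core, Skp2 and Btrc, the 5 highest per kb in each subfamily, the 5 smallest p in each direction and a panel with known substrates, of which 1 gene is counted in the totals but not reported here by name or in the plots of single genes; of each pathway list, the smallest p in each direction.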

Additional observations from a re-analysis of the deposited data

How the results depend on the processing

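Under every alternative with 2 libraries in each group, 0 members passed the adjusted threshold. DESeq2 called 53 of 36863 genes (0.144%) and the other such fits called 0 genes, so the 0 for members is near the background. At an unadjusted p under 0.05 the count of 1 member became 2 with DESeq2 (3.08%, against 4.01% of all genes), 2 with limma-voom (3.23% against 3.13%), 2 without a filter on low counts (3.08% against 2.67%) and 0 when only genes averaging at least 10 CPM were kept (against 3.29%), where Fbxo6 is not tested. With 1 library left out it ran from 1 to 11, in fits where the spread came from the group that kept 2 libraries. The 22 members without overlap became 12 at a mean of at least 10 CPM, where fewer genes are counted. They became 35 to 55 with 1 library left out, since a group of 1 library overlaps less by construction. The matching shares over all genes were not computed, so these counts show nothing particular to the members. The top 5 receptors made up 56.9% with the longest transcript in place of 53.0%.

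Of 35 named members, 25 kept the sign of their log2 fold change under every alternative. Signs turned at a mean of at least 10 CPM for Fbxl20 (-0.017), Fbxl5 (-0.014) and Fbxo9 (-0.01), and for Fbxo9 with limma-voom (-0.0072). With 1 library left out, ranges that crossed 0 were -0.044 to 0.011 for Cul1, -0.11 to 0.82 for Fbxl2, -0.11 to 0.13 for Fbxl20, -0.17 to 0.19 for Fbxl5, -0.012 to 0.17 for Fbxl6, -0.42 to 0.46 for Fbxo28, -0.29 to 0.15 for Fbxo30, -0.21 to 0.15 for Fbxo34, -0.28 to 0.27 for Fbxo9 and -0.06 to 0.22 for Fbxw11. The cause was not tested.

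The differences between replicates 1 and 2 correlated at -0.212 between the groups over 8185 genes, so the numbers were not taken to pair the samples; whether libraries share an origin is not known. With a replicate block 0 members were called, and 1 (1.61%, against 1.87% of all genes) had an unadjusted p under 0.05. The log2 fold change of Fbxo9 was -0.0018 in that fit. With crossed numbers, chosen after seeing the data, 0 members and 0 genes were called, and 3 members (4.84%, against 2.92% of all genes) had an unadjusted p under 0.05.

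With 2 libraries a group and many receptors under 10 CPM, differences below 2-fold were mostly out of reach for the low receptors.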
